A study of Homo sapiens with 4 samples.

Results

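The genes described here encode core proteins of the spliceosome and the heterogeneous nuclear ribonucleoproteins (hnRNPs). They were picked from the deposited expression table by gene name, under a rule written with earlier results of these data known: the SNRP, SF3A and SF3B, PRPF, LSM, U2AF and HNRNP families, without names that end in P and a number, which are pseudogenes. This rule found 72 genes among 60666 rows, and 67 of them had a mean level of 1 TPM or more and were tested (TPM, transcripts scaled by gene length and library total). The families held 25 HNRNP, 13 PRPF, 12 SNRP, 11 LSM, 9 SF3 and 2 U2AF genes. RNA came from HGC27 cells, an established human gastric cancer line, cultured in DMEM that lacked glucose and held serum and antibiotics. One group got nothing else (no glucose, n = 2), and 25 mM lactate was added for 24 h in the other (lactate, n = 2). Both groups lacked glucose, so the comparison is one of added lactate and not of glucose.

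Introns are removed by the spliceosome, which assembles on each pre-mRNA from small nuclear ribonucleoproteins (snRNPs). Each snRNP carries a short RNA held by a ring of Sm or LSM proteins, together with proteins of its own: U1 marks the 5′ splice site, U2 with SF3a and SF3b marks the branch site, and the U4/U6.U5 tri-snRNP with PRPF proteins brings in the catalytic centre. U2AF reads the 3′ splice site. The hnRNPs are abundant nuclear proteins that coat the nascent transcript, compete with or help splice site recognition, and many of them also act in mRNA export, stability and translation.

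A TPM value is a share of the library, depth is unknown, and levels of different genes can be set side by side per length. In bulk RNA, fewer cells that express a gene and less RNA per cell cannot be told apart. The line showed VIM, a mesenchymal filament gene, at 2747 to 2984 TPM, whereas the epithelial genes EPCAM, KRT18 and KRT19 lay under 1 TPM and CDH1 between 0.83 and 3.76 TPM. Of the gastric genes, TFF1, TFF2, MUC5AC and GKN1 were listed at 0 in all 4 libraries, CLDN18 reached 0.24 TPM and MUC6 4.19 TPM, so the defining markers of gastric epithelium were absent or low. KRT8 rose from 2.08 and 1.87 TPM to 6.07 and 6 TPM with lactate (log2 fold change 1.24, adjusted p = 0.0328 in limma). Of the usual fibroblast genes, COL1A1 was at 257.2 and 260.1 TPM without and 361.9 and 322.9 TPM with lactate, and DCN at 213.1 and 209.8 against 162.1 and 186.0 TPM (adjusted p = 0.0647 and 0.145). Their part in the results was not tested. The blood and endothelial genes PTPRC, CD3E, HBB, PECAM1 and VWF reached at most 0.30 TPM.

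A part of the splicing machinery was lower with lactate, and none of it was called higher. Of the 67 tested genes, 12 fell, none rose and 55 did not pass the test (limma, adjusted p under 0.05 over all 15051 tested rows). The fallen genes were 17.9% of the tested members, against 1.9% of all tested rows that fell, 4.69% that rose and 6.59% called in either direction. At a mean level of 30 TPM or more 3.82% of rows fell, and so did 12 of the 60 members found there, or 20%. At an unadjusted p under 0.05, which 28.2% of all tested rows passed in either direction, 26 members were lower and 2 were higher, the latter being LSM11 and PRPF40B. The lactate libraries lay below both no-glucose libraries for 42 of the 67 members, or 62.7%, against 21.3% of all tested rows and 31.9% of the rows at 30 TPM or more. They lay above for 4 members, where 37% of all rows did. The median log2 fold change of the members was -0.24, and that of all tested rows was 0.083.

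Together the 72 genes made up 1.75% and 1.73% of the summed TPM without lactate and 1.41% and 1.48% with it. Over all tested rows 706 rose and 286 fell, a split that became 389 and 382 when the libraries were rescaled by their median ratio. Under that scaling 13 members fell and none rose, and 61 of the 67 log2 fold changes lay below 0, where 54 did without it. All 12 calls ended when any 1 library was left out, in limma with 1 residual degree of freedom. The log2 fold changes of the 12 genes stayed below 0 in each of those fits, between -0.93 and -0.37. With rows of any level tested, the 12 adjusted p ran from 0.108 to 0.163 and the calls ended. They also ended with 1 variance prior for all rows (0.0598 to 0.114). When protein-coding genes alone were tested, 21 members fell and PRPF40B rose. Over all rows of that set 588 fell and 1573 rose, so calls were more frequent outside the members too. Nothing in the labels says whether the libraries of a group were separate cultures. The p-values rest on their spread, which may be technical, and on a variance trend drawn from all tested rows.

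**Figure D1:**
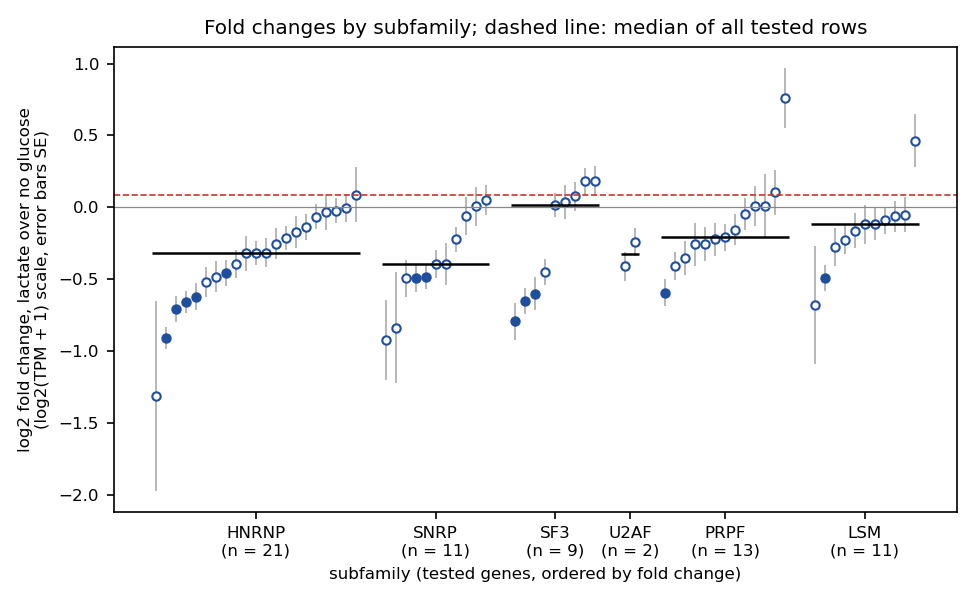
Log2 fold change of each of the 67 tested genes, on the log2(TPM + 1) scale and positive where lactate was higher, by family; error bars are SE from limma, filled points are the 12 genes that fell, black lines are family medians and the dashed line is the median of all tested rows, 0.083. The HNRNP and SNRP medians lie at -0.32 and -0.39, and the SF3 family splits into 4 genes below -0.4 and 5 genes at 0.02 or above, 3 of which turn below 0 under median-ratio scaling.

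By number the hnRNPs held the most fallen genes, 23.8% of those tested, and the SF3 family had 33.3%, against 1.9% of all tested rows. The SF3 share rests on 3 of 9 genes, so the families are not ranked by it. Of 21 hnRNPs tested, 5 fell, none rose and 16 did not pass (11 of the 21 had an unadjusted p under 0.05), with a median log2 fold change of -0.32. HNRNPM, a regulator of alternative exons (NCBI gene 4670, chromosome 19, 8444975 to 8489114), was at 367.4 and 360.0 TPM without and 190.0 and 196.8 TPM with lactate. The libraries of each condition differed by a few percent, and the conditions were far apart. The log2 fold change was -0.91 ± 0.08 (SE), with an adjusted p of 0.0244, the strongest fall by p-value among the members.

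HNRNPK, which binds runs of C in RNA and DNA (NCBI gene 3190, chromosome 9, 83968083 to 83980615), was at 654.2 and 670.2 TPM without and 383.4 and 429.4 TPM with lactate. It fell by 0.71 ± 0.09 on the log2 scale (SE, adjusted p = 0.0322). HNRNPU, also known as scaffold attachment factor A for its binding to chromatin (NCBI gene 3192, chromosome 1, 244850297 to 244864543), went from 629.6 and 607.3 TPM to 389.1 and 395.6 TPM. Here too the groups were well separated, by a difference of -0.65 ± 0.08 (SE) on the log2 scale with an adjusted p of 0.0308. Its relative HNRNPUL1 was at 97.2 and 94.3 TPM without and 92.7 and 90.1 TPM with lactate (log2 fold change -0.07, adjusted p = 0.658), and whether both genes differ was not tested.

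Members of the A/B type, which carry paired RNA recognition motifs and often silence exons, spanned a wide range. HNRNPAB (NCBI gene 3182, chromosome 5, 178204533 to 178211163) was at 378.1 and 382.1 TPM without and 232.3 and 261.9 TPM with lactate, a difference of -0.62 ± 0.09 (SE) on the log2 scale with an adjusted p of 0.0363. HNRNPA2B1 (NCBI gene 3181, chromosome 7, 26189927 to 26200746) was at 1184 and 1169 TPM without and 806.4 and 909.1 TPM with lactate, a difference of -0.46 ± 0.09 (SE) on the log2 scale with an adjusted p of 0.0497. It was the member nearest to the threshold on the called side, and HNRNPD, at 611.6 and 655.6 TPM without and 410.5 and 475.9 TPM with lactate, was with SF3A3 the nearest on the other (-0.52 ± 0.10, adjusted p = 0.0514). HNRNPD encodes AUF1, which binds AU-rich elements and promotes mRNA decay. Its value passed the threshold with a pseudocount of 0.1, under median-ratio scaling, with a filter at 5 TPM and with the replicate block (adjusted p between 0.0339 and 0.0446), and with protein-coding genes only (0.0179).

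HNRNPA3 was at 423.0 and 357.1 TPM without and 279.1 and 276.5 TPM with lactate (log2 fold change -0.48, adjusted p = 0.0609), and HNRNPDL at 371.8 and 410.6 against 305.6 and 351.6 TPM (-0.25, adjusted p = 0.200). Their groups did not overlap. By contrast HNRNPA1, the classical splicing silencer and by level the highest member, was at 3256 and 3083 TPM without and 2978 and 3269 TPM with lactate (-0.02 ± 0.08, adjusted p = 0.893). Its 4 libraries were interleaved. HNRNPA0 was as flat, at 37.3 and 37.2 TPM without and 37.6 and 36.7 TPM with lactate (adjusted p = 0.981), and HNRNPA1L2, a retrocopy of HNRNPA1, stood at 3.55 to 4.87 TPM in all libraries (log2 fold change 0.09, adjusted p = 0.802).

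HNRNPA1 alone made up 3256 of the 11092 TPM of hnRNP transcripts in the first no-glucose library. The sum over all other tested hnRNPs was 7837 and 8065 TPM without and 5654 and 6269 TPM with lactate. That sum was lower in both lactate libraries than in either no-glucose library, whereas the libraries were interleaved for HNRNPA1.

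Among hnRNPs that read G-rich tracts, HNRNPH3, HNRNPF and HNRNPH2 had log2 fold changes of -0.40, -0.32 and -0.31 (adjusted p = 0.0760, 0.0892 and 0.116), and HNRNPH1 one of -0.17. HNRNPH1 ranged from 983.8 to 1037 TPM without and from 816.1 to 983.6 TPM with lactate, so its groups only just missed overlapping. HNRNPC, which binds runs of U, was at 1100 and 1291 TPM without and 881.6 and 1034 TPM with lactate (-0.32, adjusted p = 0.170). HNRNPL, a reader of CA repeats, was at -0.21 (adjusted p = 0.181) and HNRNPR at -0.14, whereas HNRNPLL, known for splicing of CD45 in T cells, was at -0.03 with overlapping groups. In all, 17 of the 21 hnRNPs, or 81%, were lower in both lactate libraries than in either no-glucose library. Among all tested rows 21.3% were, and among rows at 30 TPM or more 31.9%. The 17 include HNRNPH1 and also HNRNPUL2, whose closest libraries were at 17.8 TPM without and 17.5 TPM with lactate.

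**Figure D2:**
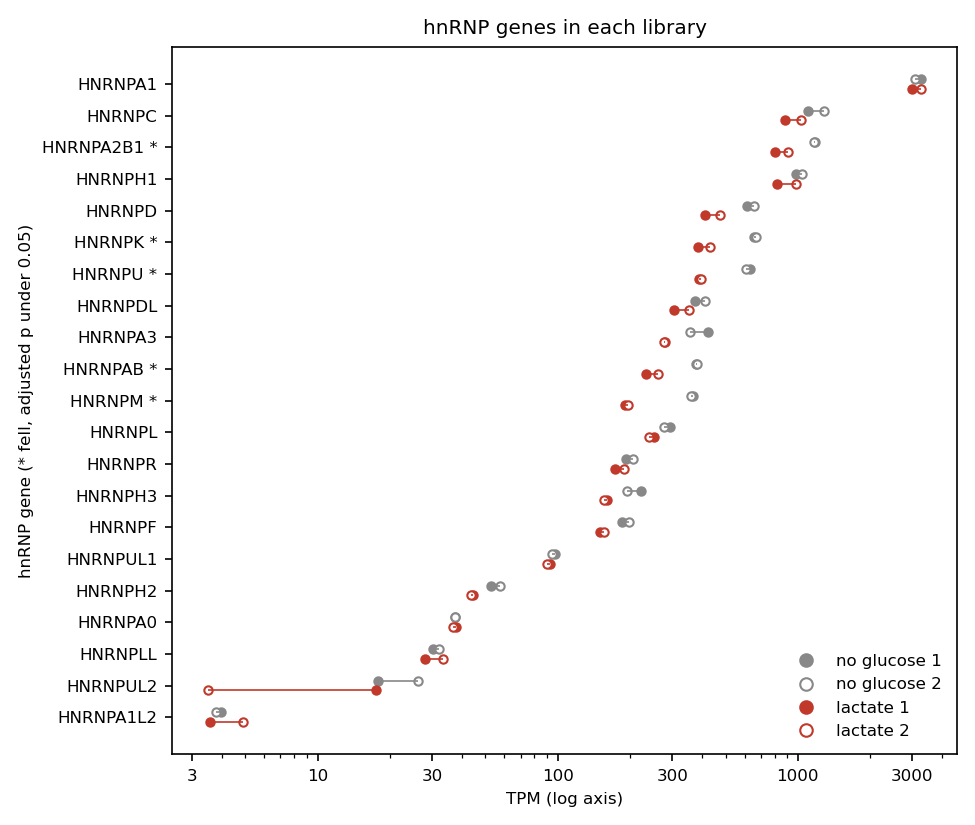
TPM of the 21 tested hnRNP genes in each of the 4 libraries (log axis), ordered by mean level; grey points are no glucose, red points are lactate, filled points are replicate 1, open points replicate 2, and an asterisk marks the 5 genes that fell. HNRNPM stands at 360.0 to 367.4 TPM without and 190.0 to 196.8 TPM with lactate, whereas the points of HNRNPA1, between 2978 and 3269 TPM, are interleaved.

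The hnRNP with the largest fold change was not among the calls. HNRNPUL2 was at 17.8 and 26.1 TPM without and 17.5 and 3.49 TPM with lactate (log2 fold change -1.31 ± 0.66, adjusted p = 0.261), and 1 lactate library set the difference. Without that library the log2 fold change was -0.29, and without the other lactate library it was -2.33. The table also holds a read-through row that joins HNRNPUL2 to its neighbour BSCL2, at 41.2 and 34.1 TPM without and 47.3 and 57.4 TPM with lactate. The sum of both rows was 59.1 and 60.2 TPM without and 64.7 and 60.9 TPM with lactate (log2 fold change 0.07). The read-through row was highest in the library in which HNRNPUL2 was lowest. Reads of the shared exons can be assigned to either row, so the value of HNRNPUL2 alone is uncertain. HNRNPH2 has such a read-through row too, with the ribosomal gene RPL36A, which varied between 319.0 and 1426 TPM.

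**Figure D3:**
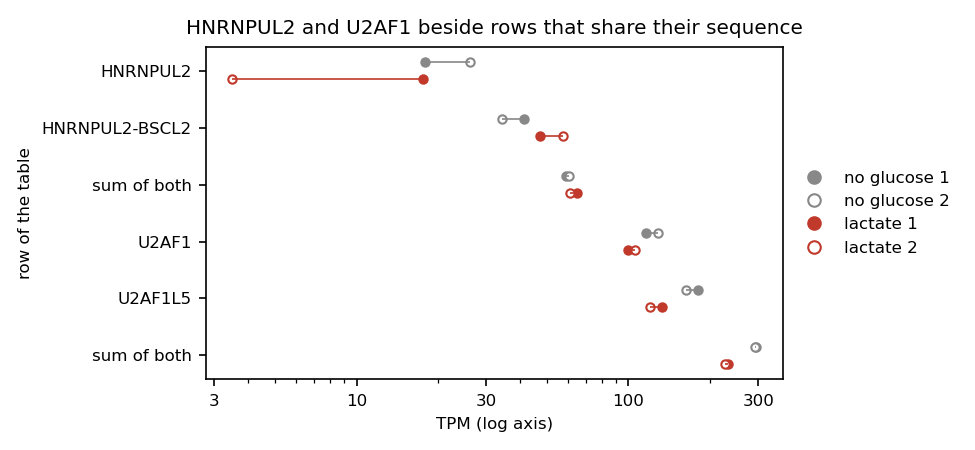
TPM in each of the 4 libraries (log axis) of HNRNPUL2 and U2AF1, of a row of the table that shares the sequence of each, and of the sum of both rows; grey is no glucose, red is lactate, filled points are replicate 1 and open points replicate 2. The HNRNPUL2 sum is 59.1 to 64.7 TPM in all libraries, and the U2AF1 sum is 291.2 and 295.3 TPM without and 226.1 and 232.1 TPM with lactate.

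The Sm proteins form a ring of 7 subunits around the RNA of U1, U2, U4 and U5. Of these, 2 fell (28.6%, against 1.9% of all tested rows) and 5 did not pass, with a median log2 fold change of -0.49. SNRPG (NCBI gene 6637, chromosome 2, 70281362 to 70293740) was at 638.3 and 615.2 TPM without and 462.2 and 433.5 TPM with lactate, a difference of -0.48 ± 0.08 (SE) on the log2 scale with an adjusted p of 0.0410. SNRPE (NCBI gene 6635, chromosome 1, 203861599 to 203871152) went from 228.8 and 254.7 TPM to 166.7 and 175.9 TPM, a difference of -0.49 ± 0.10 (SE) on the log2 scale with an adjusted p of 0.0489. SNRPF, which sits beside SNRPE in the ring, was at 96.9 and 78.7 TPM without and 60.1 and 63.4 TPM with lactate (-0.49, adjusted p = 0.0815). The lactate libraries of all 3 genes lay below both no-glucose libraries.

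SNRPD2 overlapped between the groups. It was at 747.6 and 603.0 TPM without and 721.0 and 631.5 TPM with lactate, a log2 fold change of 0.01 ± 0.13 (adjusted p = 0.979) that turned to -0.09 under median-ratio scaling. SNRPB was at 435.6 and 424.1 TPM without and 387.9 and 349.8 TPM with lactate (-0.22, adjusted p = 0.181). SNRPD1 and SNRPD3 had the lowest fold changes of the ring but also the widest spread. SNRPD1 was at 184.2 and 80.0 TPM without and 73.5 and 62.1 TPM with lactate (-0.84 ± 0.39, adjusted p = 0.227). SNRPD3 was at 37.4 and 21.7 TPM without and 12.9 and 16.5 TPM with lactate (-0.92 ± 0.28, adjusted p = 0.106). For both, the first no-glucose library was the highest. Without it the log2 fold change of SNRPD1 was -0.24 and that of SNRPD3 -0.54.

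Within the ring, levels per length ran from 14.7 TPM for SNRPD3 to 676.3 TPM for SNRPD2 as lactate means, although the assembled ring holds the subunits in equal number. SNRPN, a variant of SNRPB known from neurons, was listed at 0 in 3 libraries and at 0.19 TPM in the second no-glucose library, and was not tested.

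The SNRP genes whose proteins are particular to U1 or U2 did not pass. SNRPC, which steadies U1 on the 5′ splice site, was at 212.3 and 194.5 TPM without and 160.8 and 148.2 TPM with lactate (-0.39, adjusted p = 0.0710). SNRPA, the U1 A protein, was at 121.6 and 135.9 TPM without and 138.7 and 128.0 TPM with lactate (0.05, adjusted p = 0.779), a difference that turned to -0.05 under median-ratio scaling. In U2, SNRPB2 had a log2 fold change of -0.39 (adjusted p = 0.158) and its partner SNRPA1 one of -0.06.

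The SF3a and SF3b complexes of U2 split. Of 9 genes, 3 fell (33.3%, against 1.9% of all tested rows), none rose and 6 did not pass. By sign 4 lay below 0 and 5 above. The median of 0.02 became -0.08 under median-ratio scaling, where 7 lay below 0 and 2 above. SF3A1, the largest subunit of SF3a (NCBI gene 10291, chromosome 22, 30331988 to 30356894) was at 62.6 and 53.2 TPM without and 35.1 and 30.9 TPM with lactate, a difference of -0.79 ± 0.13 (SE) on the log2 scale with an adjusted p of 0.0401. SF3A3 was at 135.0 and 132.7 TPM without and 93.8 and 101.7 TPM with lactate (-0.45 ± 0.09, adjusted p = 0.0514), so it narrowly missed the threshold. SF3A2, the remaining subunit of SF3a, was at 83.1 and 82.6 TPM without and 98.6 and 89.7 TPM with lactate (0.18, adjusted p = 0.277). In each library the level of SF3A1 was set against that of SF3A2, a pair chosen after its values were seen. The ratio was 0.753 and 0.644 without and 0.356 and 0.344 with lactate. With 2 libraries a group an exact permutation test cannot give a p below 0.333, and the ratio was not tested.

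In SF3b, SF3B3, a large propeller-shaped scaffold (NCBI gene 23450, chromosome 16, 70523816 to 70577668), went from 114.4 and 108.4 TPM to 72.8 and 68.4 TPM, a difference of -0.65 ± 0.09 (SE) on the log2 scale with an adjusted p of 0.0340. SF3B4, which touches the pre-mRNA beside the branch site (NCBI gene 10262, chromosome 1, 149923317 to 149927803), went from 89.5 and 90.7 TPM to 64.5 and 54.2 TPM, a difference of -0.60 ± 0.12 (SE) on the log2 scale with an adjusted p of 0.0484. Under median-ratio scaling its log2 fold change was -0.70 and its adjusted p 0.0532, so the call ended although the fold change was no smaller. SF3B1, the branch site clamp that is mutated in several blood cancers, was at 115.8 and 98.6 TPM without and 104.5 and 115.3 TPM with lactate (0.04, adjusted p = 0.863). SF3B2, SF3B5 and SF3B6 had log2 fold changes of 0.02, 0.18 and 0.08. Under median-ratio scaling SF3B1, SF3B2 and SF3B6 were at -0.06, -0.08 and -0.02, and SF3A2 and SF3B5 stayed above 0 at 0.08 each. The differences between subunits were not tested.

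**Figure D4:**
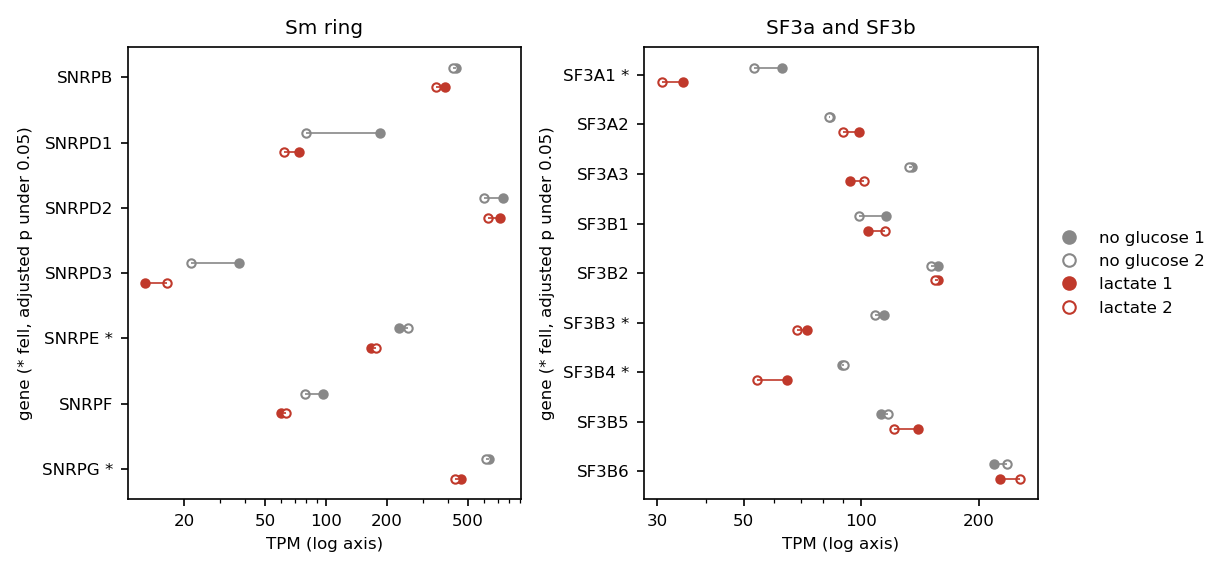
TPM of the 7 tested Sm ring genes (left) and the 9 SF3a and SF3b genes (right) in each library on log axes; grey is no glucose, red is lactate, filled points are replicate 1, open points replicate 2, and asterisks mark genes that fell. SNRPE, SNRPG, SF3A1, SF3B3 and SF3B4 are separated by condition, whereas SNRPD2, SF3B1, SF3B2 and SF3B6 overlap and SNRPD1 has 1 library at 184.2 TPM.

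U2AF2, the large subunit that binds the polypyrimidine tract, was at 158.0 and 159.6 TPM without and 127.2 and 111.9 TPM with lactate (-0.41 ± 0.10, adjusted p = 0.0708). U2AF1, its small partner that reads the AG at the intron end, was at 115.7 and 128.0 TPM without and 99.6 and 105.8 TPM with lactate (-0.24, adjusted p = 0.184). U2AF1L5, a near-identical second copy in this assembly, took a larger value than U2AF1 itself, at 179.6 and 163.2 TPM without and 132.5 and 120.3 TPM with lactate (-0.44, adjusted p = 0.0657). The sum of both copies was 295.3 and 291.2 TPM without and 232.1 and 226.1 TPM with lactate, a log2 fold change of -0.35. The division between the copies is uncertain, and their sum varied less between replicates than either row.

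Of the 13 PRPF genes, 1 fell (7.69%, against 1.9% of all tested rows) and 12 did not pass, with a median of -0.21. PRPF19, the ubiquitin ligase at the heart of the complex that activates the spliceosome (NCBI gene 27339, chromosome 11, 60890547 to 60906585), was at 134.6 and 131.1 TPM without and 92.0 and 83.8 TPM with lactate. It fell by 0.59 ± 0.09 on the log2 scale (SE, adjusted p = 0.0390). PRPF8, which cradles the catalytic RNA, was at 99.9 and 87.4 TPM without and 83.5 and 73.2 TPM with lactate (-0.25, adjusted p = 0.231). Among tri-snRNP proteins, PRPF4 was at -0.41 (adjusted p = 0.0701), PRPF3 at -0.21, PRPF6 at -0.15 and PRPF31 at -0.04. PRPF38A and PRPF38B were at -0.35 and -0.22. PRPF4B, PRPF18 and PRPF39 were at 0.01, 0.01 and 0.11 with overlapping groups, and at -0.09, -0.08 and 0.01 under median-ratio scaling.

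PRPF40B had the highest fold change of all 67 members. It was at 4.95 and 6.16 TPM without and 11.99 and 8.42 TPM with lactate, so its groups did not overlap (0.76 ± 0.21, adjusted p = 0.0892). When only protein-coding genes were tested its adjusted p was 0.0362.

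The LSM proteins build 2 related rings: LSM2 to LSM8 hold U6 RNA in the nucleus, and LSM1 to LSM7 start decapping and decay of mRNA in the cytoplasm. Only LSM6 fell (9.09%, against 1.9% of all tested rows), 10 of 11 did not pass, and the median was -0.12. LSM6 (NCBI gene 11157, chromosome 4, 146175718 to 146191535) was at 100.1 and 94.3 TPM without and 67.9 and 69.9 TPM with lactate, a difference of -0.49 ± 0.09 (SE) on the log2 scale with an adjusted p of 0.0467. LSM8, particular to the U6 ring, was at 50.7 and 47.5 TPM without and 45.1 and 36.2 TPM with lactate (-0.28, adjusted p = 0.252). LSM1, particular to the decay ring, was at 63.3 and 73.7 TPM without and 57.5 and 64.7 TPM with lactate (-0.16, adjusted p = 0.433). LSM2, LSM4, LSM5 and LSM7 had log2 fold changes between -0.22 and -0.05.

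LSM3 stood apart in the same library as SNRPD1, at 107.3 TPM in the first no-glucose library and at 43.2, 44.3 and 40.4 TPM in the other 3 (-0.68 ± 0.41, adjusted p = 0.341). Without that library its log2 fold change was -0.03. Of the 4007 rows at a mean level of 30 TPM or more, 9 were at least 2 times as high in that library as in each of the others, and LSM3 and SNRPD1 were among them.

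LSM10 and LSM11 belong to U7, which trims the ends of replication-dependent histone mRNAs. LSM10 was at 94.4 and 91.1 TPM without and 95.7 and 82.4 TPM with lactate (-0.06, adjusted p = 0.747). LSM11, the subunit that recruits the cleavage factors, was at 3.27 and 4.20 TPM without and 5.05 and 5.98 TPM with lactate (0.46 ± 0.18, adjusted p = 0.177). LSM12 was at -0.12 (adjusted p = 0.529). Its pseudogene LSM12P1 stood at 35.9 and 28.5 TPM without and 18.0 and 20.8 TPM with lactate, or 63.1% of the level of LSM12 over the 4 libraries, so the division of reads between both is uncertain.

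Other members shared little signal with their pseudogenes. The 75 pseudogene rows named after HNRNPA1 summed to 28.1 to 32.0 TPM in each library, or 0.968% of HNRNPA1. Those of SNRPG, SNRPE, HNRNPA3 and HNRNPC came to 1.73%, 0.596%, 1.95% and 0.816% of their parent genes. Adding pseudogene, read-through and copy rows to their members left 12 calls. Besides SNRPN, the untested members were HNRNPCL1, HNRNPCL2, HNRNPCL3 and HNRNPCL4, copies of HNRNPC on chromosome 1, which were listed at 0 in all 4 libraries.

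Splicing genes outside these families were read from 5 lists holding 115 genes, all of which were tested. In total 7 of them fell and none rose, where 1.9% of all tested rows fell and 4.69% rose. Of 25 other RNA binders of the hnRNP kind, 3 fell (12%, against 1.9% of all rows, median -0.17). SYNCRIP, also known as hnRNP Q, went from 157.5 and 169.2 TPM to 90.5 and 108.2 TPM (log2 fold change -0.72, adjusted p = 0.0406), and the paraspeckle protein SFPQ from 362.6 and 343.0 TPM to 249.3 and 240.9 TPM (-0.52, adjusted p = 0.0383). RBFOX2, a regulator of alternative exons, was the highest of that list at 0.35 (adjusted p = 0.0938).

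Among 17 genes of snRNP assembly, 2 fell, or 11.8% (median -0.17). Of all tested rows 1.9% fell, and of those at 30 TPM or more 3.82%. WDR77, which partners the methyltransferase PRMT5 in modifying Sm proteins, was at 55.5 and 50.5 TPM without and 30.7 and 29.4 TPM with lactate (-0.80, adjusted p = 0.0327). GEMIN5, which recognises snRNAs for the SMN complex, was at 25.7 and 28.0 TPM without and 15.1 and 17.2 TPM with lactate (-0.71, adjusted p = 0.0420). GEMIN8 was the highest at 0.15. In the exon junction complex and its partners, EIF4A3, the helicase that anchors the complex, alone fell of 15 genes (6.67%, median -0.35), from 140.4 and 136.9 TPM to 102.8 and 94.6 TPM (-0.49, adjusted p = 0.0471), while MAGOHB was lowest at -0.65 (adjusted p = 0.230) and CASC3 highest at 0.10.

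Of 30 genes of spliceosome activation and catalysis, ISY1 alone fell (3.33%, median -0.06). This share is near the 1.9% of all tested rows and the 3.82% of those at 30 TPM or more. ISY1 went from 25.7 and 24.9 TPM without to 17.4 and 17.2 TPM with lactate (-0.52, adjusted p = 0.0496 in limma). DDX41 was the highest at 0.49, with 211.4 TPM in the second lactate library and 98.8 to 111.0 TPM in the other 3 (adjusted p = 0.393). None of 28 further snRNP proteins passed in limma (median -0.21). An unadjusted p under 0.05 was found for 9 of the 28, and for 28.2% of all tested rows. SNRNP25 of the minor spliceosome was the lowest at -0.69 (adjusted p = 0.0657) and ZCRB1 the highest at 0.27. Each of the 5 list medians lay below the 0.083 of all tested rows.

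Of the 67 members 54 lay below 0, against 40.8% of all tested rows. Windows of 300 bases from RefSeq on GRCh38.p14, 250 before and 50 after the start of a transcript, were searched for 6 short motifs. Windows were found for 59 of the 67 tested members. That start can lie inside the gene, and 8 windows, those of SNRPG and SNRPE among them, were left out because it was over 50 bases from the outer end of the gene, which left 51. The letters CCGGAAG, the core read by ETS factors, stood on either strand in 18 of the 51, or 35.3%, against 20.7% of 8666 windows of tested rows and 10.7% of all 24408 windows, chosen in the same way. They were in 2 of 8 windows of members that fell and in 16 of 43 of those not called. The left-out windows of SNRPG and SNRPE held them too. With all left-out windows included, they were in 4 of 10 windows of members that fell and in 18 of 49 of those not called. CCAAT was in 51% of member windows and 38.3% of those of tested rows, GGGCGG in 70.6% and 71.2%, CACGTG in 11.8% and 10.4%, TATAAA in 9.8% and 5.59%, and GCATGCGC, part of the NRF1 motif, in 5.88% and 6.22%. A match is only a run of letters and not a site shown to be bound.

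The windows of SF3A1 and SF3A2, subunits of 1 complex on either side of 0, and of HNRNPM, the member called with the lowest p, are printed to show such letters in place. They lie at chr22:30356845-30357144 (minus strand), chr19:2236574-2236873 (plus strand) and chr19:8444725-8445024 (plus strand), and each is written 5′ to 3′ on the strand of its gene with matches to any of the 6 motifs, on either strand, in capitals.
SF3A1: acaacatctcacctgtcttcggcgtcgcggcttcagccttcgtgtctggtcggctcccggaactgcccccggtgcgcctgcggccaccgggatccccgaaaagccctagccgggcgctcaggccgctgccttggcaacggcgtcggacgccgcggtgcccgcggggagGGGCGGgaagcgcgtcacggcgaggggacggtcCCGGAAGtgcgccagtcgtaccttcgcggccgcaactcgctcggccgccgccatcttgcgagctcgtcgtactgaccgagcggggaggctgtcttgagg
SF3A2: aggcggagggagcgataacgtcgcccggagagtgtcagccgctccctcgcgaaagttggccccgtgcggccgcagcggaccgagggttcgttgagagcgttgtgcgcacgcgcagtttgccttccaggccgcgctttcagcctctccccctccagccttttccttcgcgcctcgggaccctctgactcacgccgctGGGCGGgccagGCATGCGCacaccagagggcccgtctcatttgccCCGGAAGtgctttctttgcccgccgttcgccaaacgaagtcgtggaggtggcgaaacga
HNRNPM: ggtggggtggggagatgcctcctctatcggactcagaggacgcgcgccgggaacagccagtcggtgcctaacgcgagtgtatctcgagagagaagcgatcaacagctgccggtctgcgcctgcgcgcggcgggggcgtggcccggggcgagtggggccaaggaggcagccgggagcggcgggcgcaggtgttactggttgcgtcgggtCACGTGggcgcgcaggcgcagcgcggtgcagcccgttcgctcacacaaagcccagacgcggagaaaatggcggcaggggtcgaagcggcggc
SF3A1 and SF3A2 both carried GGGCGG and CCGGAAG, and SF3A2 also GCATGCGC. Their transcripts stood at log2 fold changes of -0.79 and 0.18, and SF3A2 was not called. A link between these letters and the fold changes was not tested. HNRNPM carried CACGTG alone. No matches overlapped in these windows.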

How the data were processed

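RNA of HGC27 cells was sequenced in 2 libraries a group. The authors deposited 1 table with a TPM value for each library, and the submitters' processing notes name RSEM 1.3.3 and hg38. Aligner, annotation and use of strand were not given in the sources used here. Column sums lay between 995439 and 996089. Depth is unknown, so no counting interval was computed.

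Values were taken as log2(TPM + 1). The limma package (3.58.1, R 4.3.3) was run on the 15051 rows whose mean level was 1 TPM or more. The model had a group term alone, variances were shrunk to a trend on expression, and p-values (two-sided) were corrected after Benjamini and Hochberg across those rows. Group differences are lactate over no glucose, which this scale understates for low genes. Where a name repeated, the row with the highest mean was used. Gene coordinates and promoter windows are from RefSeq (GRCh38.p14, the same primary assembly as hg38), matched by NCBI gene number.

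Named were all called members, in each family the member highest in level and those with the highest and lowest fold change, members with an absolute log2 fold change of at least 0.5, untested members, and in each further list the called genes and the extremes. Other members are given by family, and the values of a few genes are not reported here. The members and lists were chosen with earlier results of these data known. Alternatives were a replicate block, each library left out, a pseudocount of 0.1, no filter, a filter at 5 TPM, median-ratio scaling, 1 variance prior for all rows, and thresholds of 0.01 and 0.10. Testing protein-coding genes only, adding rows that share sequence, the level of 30 TPM and the limit of 50 bases on promoter windows were chosen after seeing the data.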

Additional observations from a re-analysis of the deposited data

How the results depend on the processing

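The 12 falls held with the replicate block, a pseudocount of 0.1, a filter at 5 TPM, protein-coding genes only and added pseudogenes and copies, where 15, 14, 15, 21 and 12 members fell. Under median-ratio scaling 13 fell and 11 of the 12 were among them. No member was called lower, no hnRNP and no other splicing gene was called, without a filter on low values (27 members lower at an unadjusted p under 0.05), with 1 variance prior for all rows (23) or at an adjusted p under 0.01, although all 12 fold changes stayed below 0. With 0.10 as threshold 21 members (9 hnRNPs) were lower, 1 was higher and 26 other splicing genes were called. Protein-coding genes only gave 8 hnRNPs, 1 member higher (PRPF40B) and 21 other splicing genes, and the 5 TPM filter 12 of the latter. That filter and the protein-coding set test fewer rows.

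Over all rows the calls numbered 0 without a filter (0 up, 0 down, 5072 at an unadjusted p under 0.05), 4 with 1 prior (2 up, 2 down), 1 at 0.01 (0 up, 1 down), 2492 at 0.10 (1765 up, 727 down) and 2161 for protein-coding genes (1573 up, 588 down). Falls were 442 with the 5 TPM filter, and rises 389 under median-ratio scaling. With 1 library left out there were 0 to 13 calls (0 to 11 up, 0 to 10 down), and 0 among the members, hnRNPs and other splicing genes, with between 2409 and 3894 rows at an unadjusted p under 0.05. The lone library is then assumed to vary like the other group.

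Median-ratio scaling took the medians to -0.34 for all members, -0.42 for HNRNP, -0.22 for LSM and -0.30 for PRPF. It took them to -0.49 for SNRP, -0.0795 for SF3 and -0.42 for U2AF, and added copies took U2AF to -0.38. With 1 library left out the medians lay between -0.28 and -0.20 for all members, -0.36 and -0.25 for HNRNP, -0.17 and -0.07 for LSM, -0.25 and -0.13 for PRPF, -0.0769 and 0.0222 for SF3, -0.45 and -0.33 for SNRP, and -0.37 and -0.29 for U2AF. Genes that changed sign were all uncalled. Under median-ratio scaling SF3B6 was at -0.0216, SNRPA at -0.0473 and SNRPD2 at -0.0918. SF3B1 was then at -0.0602, SF3B2 at -0.0795, PRPF4B at -0.0873 and PRPF18 at -0.0835. With its read-through HNRNPUL2 was at 0.0735. With 1 library left out, only part of the members was followed gene by gene. Of these, HNRNPA1 lay between -0.0890 and 0.0452, HNRNPA1L2 between -0.10 and 0.27, and LSM7 between -0.20 and 0.10. SF3B6 lay between -0.00526 and 0.16, SNRPA between -0.0282 and 0.13, and SNRPD2 between -0.15 and 0.16. The cause of these changes was not tested.

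Same-numbered libraries deviated together with a correlation of 0.035 across 15051 genes, and nothing in the labels says that a number marks a shared culture, so the numbers were not read as pairs. The replicate block gave 1207 calls, of which 822 rose and 385 fell.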
